A study of Mus musculus with 28 samples.

Results

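The 9 genes described here, Saa3, Il4ra, Il1rn, Ppbp, F13a1, Zfp36, Bcl3, Nfil3 and Sbno2, were listed by symbol as responsive to interleukin-10 (IL-10) or to its transcription factor STAT3. They are 9 of 55487 Ensembl gene IDs and 9 of the 13631 genes that had at least 1 TPM in at least 4 libraries. TPM is the share of a gene among all transcripts of a library on a fixed total, corrected for transcript length, so levels of different genes can be set side by side. All 9 genes also passed that filter in the 16 libraries without IL-10 alone. The genes were chosen by their known response to IL-10 and STAT3 and with their TPM in these libraries in view, and which contrast decided is not recorded. Their levels with IL-10 against M0 or IFN-γ are therefore given as a description without a test, and tests are kept to uptake of T cells, IFN-γ against M0, and differences between the cytokines. The uptake tests under IL-10 and the differences between the cytokines reuse libraries of those descriptions. A choice by high levels in non-phagocytic libraries can favour falls with uptake.

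The cells were wild-type mouse bone marrow derived macrophages (macrophages grown in culture from marrow), cultured for 48 h, in 7 groups of 4 libraries. M0 received no polarizing cytokine. Its sample labels name neither T cells nor uptake, though the series' design describes co-culture without a cytokine too. IFN-γ (interferon gamma) and IL-10 were each given at 50 ng/mL, and for each cytokine there were libraries of 3 kinds of macrophage: those without T cell uptake (non-phagocytic), those that engulfed conventional CD4+ T cells (Tconv-phagocytic), and those that engulfed regulatory T cells (Treg-phagocytic). Both kinds of T cell had been made apoptotic with ATP/NAD+. The T cells carried an antibody against CD4 with the dye BV421 or Ax647, by which macrophages were sorted. Below, a rise or fall with uptake means a difference between such sorted groups. An effect of uptake cannot be told apart from differences that the macrophages had before it, or from T cell RNA carried along. Titles and library names disagree on the dye of all 8 Treg-phagocytic libraries, and the names used below follow the titles. No label says that libraries came from separate animals or cultures, so p-values measure the spread between these libraries, which may be technical.

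IL-10 acts on a receptor made of IL-10RA and IL-10RB chains, whose kinases JAK1 and TYK2 activate STAT3. In macrophages STAT3 switches on the feedback inhibitor SOCS3 and a set of nuclear repressors and RNA-decay factors, and the transcription of inflammatory cytokines falls. Several of the genes below belong to that second wave: BCL3, NFIL3 and SBNO2 act in the nucleus, ZFP36 destroys cytokine mRNAs, and IL1RN and IL4RA act at cytokine receptors. Saa3, Ppbp and F13a1 are better known as genes of an acute-phase protein, a platelet chemokine and a clotting transglutaminase.

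Depth differed between the cytokines. Low TPM values of genes with a single transcript fell on whole multiples of the value of 1 read, which gave the relative depth of each library: as a share of the deepest one, an M0 library, it was 11.3% to 23.7% with IFN-γ, 49.0% to 91.6% with IL-10 and at least 67.8% in M0. Between 14148 and 16295 genes had a value above 0 in IFN-γ libraries and between 16942 and 18457 in the others. All 12 macrophage markers were above 0 in every library, with a summed level of 18332 to 23119 TPM. The summed level of 12 IFN-γ response genes was 337 to 351 TPM in M0, 931 to 1040 TPM in IFN-γ non-phagocytic, 860 to 1157 TPM in IFN-γ Tconv-phagocytic and 499 to 581 TPM in IFN-γ Treg-phagocytic libraries, against 458 to 501 TPM in the IL-10 groups. The 15 T cell markers summed to 441 to 822 TPM in the IFN-γ groups, 52.9 to 139 TPM in M0, 78.4 to 90.7 TPM in IL-10 non-phagocytic, 109 to 152 TPM in IL-10 Tconv-phagocytic and 171 to 198 TPM in IL-10 Treg-phagocytic libraries. Each library is a bulk sample, in which fewer cells of a type and less RNA per cell cannot be told apart.

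STAT dimers bind a palindromic motif, and the sequence before the transcription start was searched for it in all 9 genes because they are described as STAT3 responsive. The motif TTCNNNGAA, which reads the same on both strands, was sought in the 250 bases before each annotated start (RefSeq, build GRCm38.p6). Of 14 such windows of the 9 genes, 3 windows of 2 genes held it, against 2306 of 32841 windows of all genes (7.02%). Counted by gene, 2197 of 27018 genes held it in at least 1 window (8.13%). The windows with a match belong to Sbno2 (2 of its 3 starts) and Zfp36. They are printed 5′ to 3′ on the strand of the gene, all of them the minus strand, with the motif in capitals. Beside them stands Socs3, the feedback inhibitor whose pattern was most like that of Saa3.
Sbno2, first start, chr10:80102703-80102952: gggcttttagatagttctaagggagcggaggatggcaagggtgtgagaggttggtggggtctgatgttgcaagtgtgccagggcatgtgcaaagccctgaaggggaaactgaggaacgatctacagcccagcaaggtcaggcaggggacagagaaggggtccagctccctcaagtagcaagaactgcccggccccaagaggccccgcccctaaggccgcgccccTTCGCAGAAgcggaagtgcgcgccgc
Sbno2, second start, chr10:80101188-80101437: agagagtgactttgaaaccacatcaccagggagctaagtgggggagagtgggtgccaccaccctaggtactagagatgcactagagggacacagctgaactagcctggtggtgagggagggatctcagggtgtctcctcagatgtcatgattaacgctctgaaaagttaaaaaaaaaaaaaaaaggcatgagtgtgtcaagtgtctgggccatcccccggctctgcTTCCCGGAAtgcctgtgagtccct
Zfp36, chr7:28379229-28379478: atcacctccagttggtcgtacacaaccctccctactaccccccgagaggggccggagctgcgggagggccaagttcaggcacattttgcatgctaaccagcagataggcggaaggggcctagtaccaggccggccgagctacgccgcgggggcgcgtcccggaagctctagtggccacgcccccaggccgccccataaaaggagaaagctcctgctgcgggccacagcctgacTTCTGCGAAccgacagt
Socs3, chr11:117969367-117969616: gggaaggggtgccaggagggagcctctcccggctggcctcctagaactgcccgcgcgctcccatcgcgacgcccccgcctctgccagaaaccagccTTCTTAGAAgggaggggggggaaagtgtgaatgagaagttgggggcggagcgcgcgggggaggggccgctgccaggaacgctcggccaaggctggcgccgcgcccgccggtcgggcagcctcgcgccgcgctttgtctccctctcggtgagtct
The match began 26 bases before the first Sbno2 start (TTCGCAGAA), 24 before the second (TTCCCGGAA), 17 before the Zfp36 start (TTCTGCGAA) and 154 before the Socs3 start (TTCTTAGAA). Both printed Sbno2 windows lie inside the annotated span of the gene (chr10:80056992-80106108), and the Zfp36 window lies directly before its gene. The windows of the other 7 genes did not hold these letters. Those of Saa3 (minus strand, within the annotated span of the gene) and Ppbp (plus strand, directly before the gene), the genes with the largest differences between IL-10 and M0, are printed without capitals.
Saa3, chr7:46715677-46715926: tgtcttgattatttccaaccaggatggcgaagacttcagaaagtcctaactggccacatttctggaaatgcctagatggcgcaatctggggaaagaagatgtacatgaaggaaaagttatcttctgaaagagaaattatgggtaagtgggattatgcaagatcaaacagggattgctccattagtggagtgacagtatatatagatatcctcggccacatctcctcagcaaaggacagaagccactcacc
Ppbp, chr5:90768268-90768517: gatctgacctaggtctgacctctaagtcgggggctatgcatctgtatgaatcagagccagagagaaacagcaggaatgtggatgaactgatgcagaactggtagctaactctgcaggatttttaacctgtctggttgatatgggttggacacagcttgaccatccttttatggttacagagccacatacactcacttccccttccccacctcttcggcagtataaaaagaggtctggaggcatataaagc

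With IL-10, the genes stood at very different heights above M0. Differences are given on the log2 scale of TPM divided by a scaling factor, plus 1, which understates the change of genes near 0. From M0 to IL-10 non-phagocytic libraries the difference was 7.73 for Saa3, 3.69 for Ppbp, 3.63 for F13a1, 2.39 for Il4ra, 1.66 for Bcl3, 1.45 for Sbno2, 1.32 for Nfil3, 0.90 for Zfp36 and 0.44 for Il1rn. In 7 of 9 genes it was at least 1, a doubling, which 1.31% of all tested genes reached, and in 9 of 9 the IL-10 libraries lay wholly above M0 (14.8% of all genes). Against IFN-γ non-phagocytic libraries the same 7 genes were at least doubled (background 4.95%) and 8 lay wholly above (24.8%), while Zfp36 differed by 0.13 and Il1rn by -0.18. Among Treg-phagocytic and among Tconv-phagocytic libraries, too, these 7 genes were at least doubled with IL-10 over IFN-γ (background 3.37% and 4.78%), and 7 of the 9 lay wholly above (23.1% and 25.4%). Nfil3, at 1.02 over IFN-γ in non-phagocytic libraries, was the nearest to the limit from inside and Zfp36, at 0.13, the nearest from outside. Thus 7 of the 9 genes were at least doubled with IL-10 against both M0 and IFN-γ. Since the labels of M0 name no T cells, IL-10 and exposure to T cells cannot be told apart against M0. After scaling, Zfp36 and Il1rn stood about as high with IFN-γ as with IL-10. In TPM, Zfp36 had means of 146 with IFN-γ and 195 with IL-10 in non-phagocytic libraries. The mean log2 scaling factors of these 2 groups were -0.144 and 0.144. The median of the 9 genes was 1.66 against M0 and 1.49 against IFN-γ, where the median of all genes was 0.00 and 0.02.

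**Figure D1:**
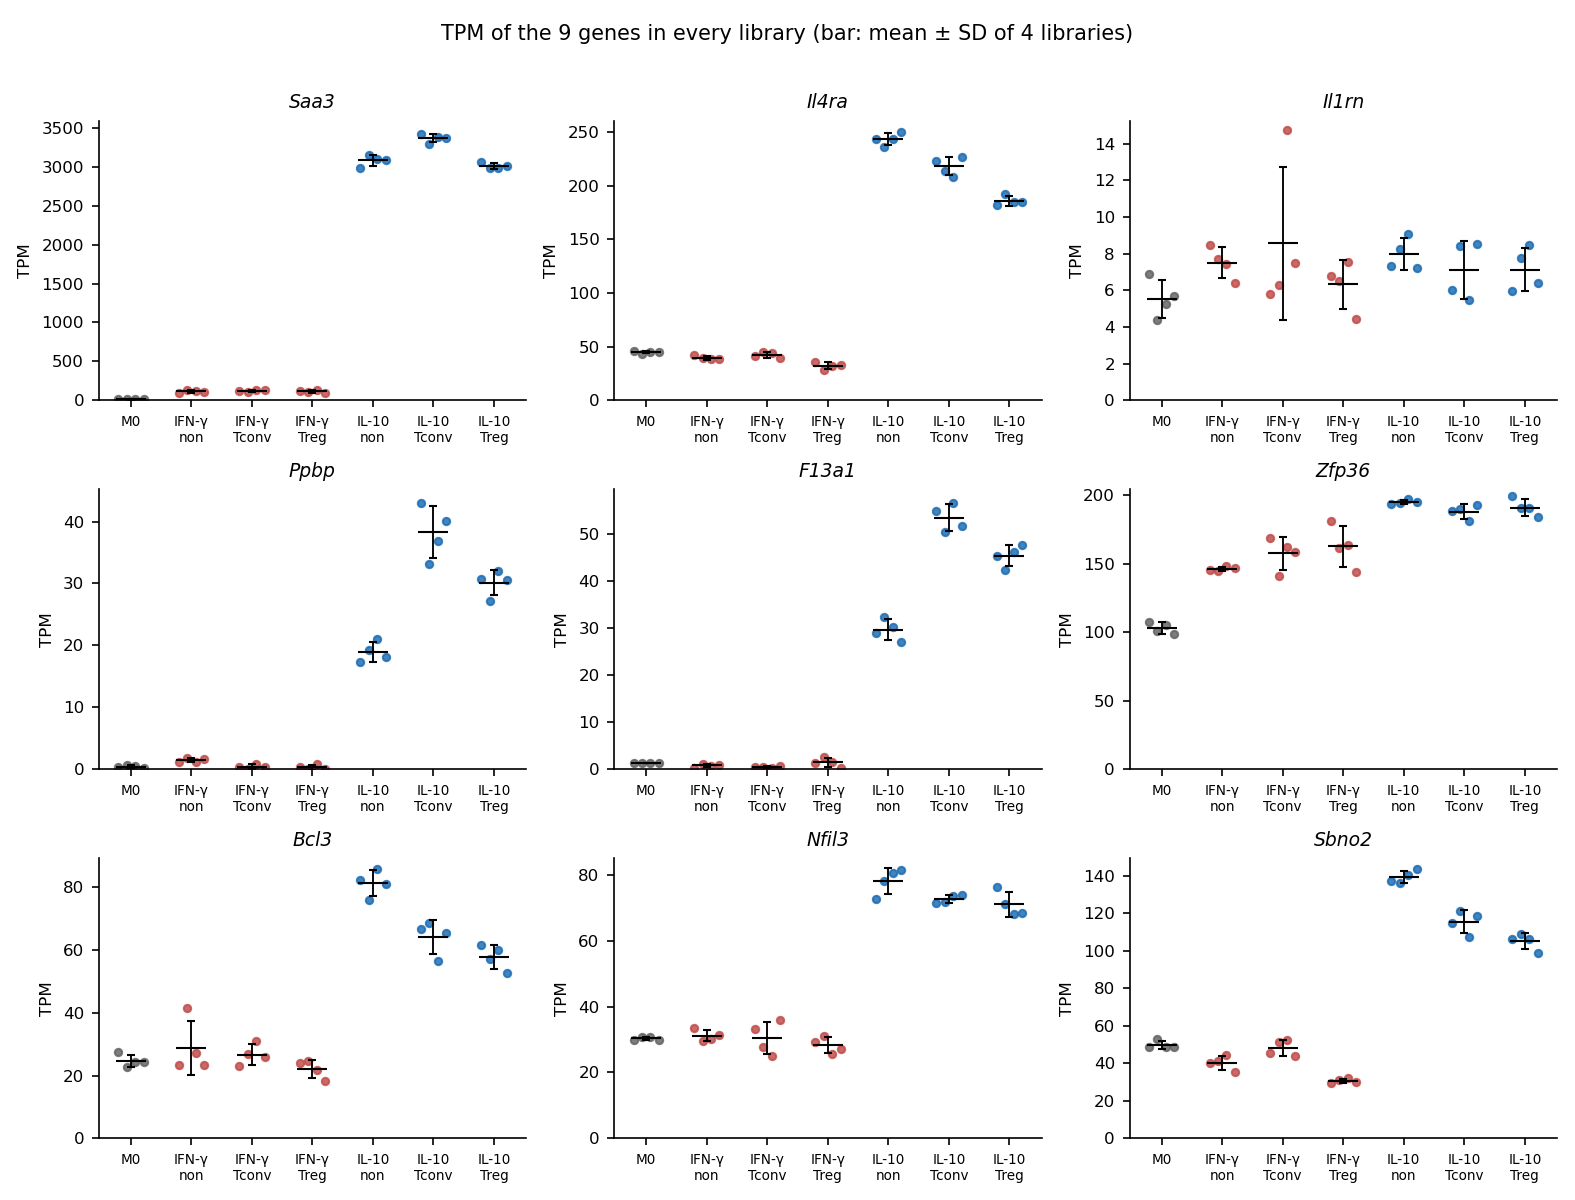
TPM (vertical axis, from 0) of the 9 genes in each of the 28 libraries, by group (M0 grey, IFN-γ red, IL-10 blue; non is non-phagocytic); points are libraries and bars the mean ± SD of 4. In 7 panels the IL-10 libraries stand apart above all others, Il1rn overlaps between neighbouring groups, and Ppbp and F13a1 rise further in both phagocytic IL-10 groups.

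Saa3 (ENSMUSG00000040026, chr7:46711998-46719615, build GRCm38, as for the genes below) encodes serum amyloid A3, an acute-phase protein made by macrophages and stromal cells during inflammation. It held 10.58, 17.8, 14.21 and 11.55 TPM in M0, 100.1, 136.73, 121.76 and 104.83 TPM in IFN-γ non-phagocytic and 2981.76, 3152.26, 3103.27 and 3089.78 TPM in IL-10 non-phagocytic libraries (replicates 1 to 4). These 3 groups did not overlap. By mean TPM the gene ranked 6610 in M0, 946 with IFN-γ and 34 with IL-10, where it made up 0.308% of all transcripts. In IL-10 Tconv-phagocytic libraries it held 3424.1, 3296.65, 3388.15 and 3367.93 TPM (BV421-1, BV421-2, Ax647-1 and Ax647-2), and in IL-10 Treg-phagocytic libraries 3059.74, 2981.85, 2989.69 and 3011.59 TPM (Ax647-1, Ax647-2, BV421-1 and BV421-2), the order used for these groups throughout. Every Tconv-phagocytic library lay above every other IL-10 library, by a small margin. The difference from non-phagocytic libraries was 0.21 (SE 0.02, adjusted p = 0.0025, limma), 9.33% of the mean TPM, and Treg- lay below Tconv-phagocytic libraries (-0.16, SE 0.02, adjusted p = 0.0071).

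Both Saa3 calls were lost when all 28 libraries shared 1 estimate of spread (adjusted p = 0.746 and 1.0) and with variance weights per group (0.145 and 0.449). The summed level of 10 stromal markers was likewise highest in Tconv-phagocytic libraries, with 158 to 170 TPM in Tconv-phagocytic, 87.0 to 91.6 TPM in non-phagocytic and 29.6 to 33.7 TPM in Treg-phagocytic libraries and 9 of 10 markers above 0 in every library of the 3 groups, and its part in the result was not tested. Saa3 did not pass the test in any uptake comparison under IFN-γ: its IFN-γ Tconv-phagocytic libraries held 108.46 to 137.88 TPM and its Treg-phagocytic libraries 94.09 to 132.76 TPM. The liver acute-phase genes next to it gave little to compare, since Saa4 and Saa1, 8.4 and 20.9 kb away, had a mean of 0.0 TPM in M0 and IFN-γ non-phagocytic libraries and 0.0 and 0.055 TPM with IL-10.

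Of 4 other acute-phase genes tested, 1 rose and 0 fell with Tconv uptake under IL-10, where 4.31% of all genes rose and 1.78% fell. With Treg uptake 1 rose and 1 fell, where 6.82% of all genes rose and 4.51% fell. C3 (complement component 3) rose with both kinds of uptake under IL-10, from 35.2 TPM to 47.6 TPM with Tconv (log2 difference 0.50, adjusted p = 0.010) and 48.6 TPM with Treg (0.53, adjusted p = 0.0050).

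Il4ra (ENSMUSG00000030748, chr7:125552271-125579474) encodes the alpha chain of the receptors for IL-4 and IL-13, through which macrophages enter alternative activation. Levels were 243.53, 236.4, 243.82 and 249.59 TPM in IL-10 non-phagocytic, 222.64, 213.74, 208.31 and 226.76 TPM in IL-10 Tconv-phagocytic and 181.74, 191.74, 184.47 and 184.85 TPM in IL-10 Treg-phagocytic libraries. In TPM the 3 groups did not overlap and Treg-phagocytic libraries were lowest, but after scaling the non-phagocytic and Tconv-phagocytic libraries overlapped. In M0 the gene held 46.2, 43.55, 44.84 and 45.11 TPM. The IFN-γ libraries held 42.06, 39.15, 38.41 and 38.82 TPM (non-phagocytic), 41.51, 45.34, 44.16 and 39.24 TPM (Tconv) and 35.86, 28.05, 32.37 and 33.06 TPM (Treg). Here too each Treg-phagocytic library was below each library of the other 2 groups.

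Il4ra fell by 0.31 from non-phagocytic to Treg-phagocytic libraries under IL-10 (SE 0.03, adjusted p = 0.00029, limma), and this call held in all 17 alternatives. Its mean TPM fell by 23.7%. It was also lower in Treg- than in Tconv-phagocytic libraries under IL-10 (-0.23, SE 0.03, adjusted p = 0.014). That call was already known when the list was drawn up and is no independent support. The fall from non-phagocytic libraries uses the same Treg-phagocytic libraries, so it is no independent support either. The call against Tconv-phagocytic libraries was lost without IL-10 Tconv-phagocytic library BV421-1 (adjusted p = 0.0547), without Treg-phagocytic library BV421-1 (0.0529) and without Treg-phagocytic library BV421-2 (0.0543). Under IFN-γ the same contrast gave -0.32 (SE 0.09, adjusted p = 0.048), which was lost in 15 of 20 alternatives, among them the removal of any of the 8 libraries (adjusted p from 0.0591 to 0.121). The difference between non-phagocytic and Tconv-phagocytic libraries was -0.08 (adjusted p = 0.245) with IL-10 and 0.05 (0.918) with IFN-γ.

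The partner chains of the receptor were read beside Il4ra. Il2rg, the common gamma chain that pairs with it for IL-4, rose with both kinds of uptake under IL-10, from 85.6 to 103 TPM with Tconv (0.34, adjusted p = 0.0011) and to 105 TPM with Treg (0.37, adjusted p = 0.0012). Il2rg is also a T cell gene, and the T cell marker sum, with all 15 markers above 0 in every library, was 78.4 to 90.7 TPM in non-phagocytic, 109 to 152 TPM in Tconv- and 171 to 198 TPM in Treg-phagocytic libraries. Its part in this result was not tested. Il13ra1, the partner for IL-13, had means of 5.63 to 5.88 TPM in the IL-10 groups and passed the test in no uptake comparison. Of 7 tested partners and signalling genes other than Il4ra, 1 rose and 0 fell in each of the Tconv and Treg comparisons with non-phagocytic libraries under IL-10, where 4.31% and 6.82% of all genes rose.

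Il1rn (ENSMUSG00000026981, chr2:24336860-24351491) encodes the IL-1 receptor antagonist, which occupies the IL-1 receptor without activating it and is a classical target of IL-10. It was low and variable: 6.87, 4.39, 5.24 and 5.68 TPM in M0, 7.31, 8.27, 9.08 and 7.2 TPM in IL-10 non-phagocytic and 8.47, 7.7, 7.45 and 6.39 TPM in IFN-γ non-phagocytic libraries. Ordered by mean TPM, every neighbouring pair of the 7 groups overlapped, and the highest value (14.74 TPM) came from 1 library, IFN-γ Tconv-phagocytic Ax647-1. No uptake comparison passed the test. Il1rn was higher with IFN-γ than in M0 (0.62, SE 0.14, adjusted p = 0.0058, limma). Its agonist Il1b, which encodes IL-1β, rose with Tconv uptake under IL-10 from 12.29 to 15.94 TPM to 17.10 to 18.82 TPM (0.42, adjusted p = 0.016) and stood at 2.44 TPM in M0. Of 15 other IL-1 family genes tested, 2 rose and 0 fell with Tconv uptake under IL-10 (all genes 4.31% and 1.78%), and 3 rose and 1 fell with Treg uptake (6.82% and 4.51%).

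Ppbp (ENSMUSG00000029372, chr5:90768518-90770063) encodes the platelet basic protein CXCL7, a neutrophil-attracting chemokine, and gave the largest uptake differences of the 9 genes under IL-10. Its levels were 17.27, 19.28, 21.0 and 18.13 TPM in IL-10 non-phagocytic, 43.02, 33.19, 36.87 and 40.04 TPM in IL-10 Tconv-phagocytic and 30.67, 27.21, 32.0 and 30.61 TPM in IL-10 Treg-phagocytic libraries. No 2 of these groups overlapped, and both phagocytic groups were above the non-phagocytic one. The rise was 1.05 with Tconv (SE 0.09, adjusted p = 0.00076, limma), a 2.02-fold change of mean TPM, and 0.72 with Treg (SE 0.07, adjusted p = 0.00082), a 1.59-fold change, and both held in all 17 alternatives. Treg- against Tconv-phagocytic libraries gave -0.33, which did not pass the test (SE 0.08, adjusted p = 0.121). Both uptake comparisons share the 4 non-phagocytic libraries.

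Without IL-10, Ppbp was near 0. It held 0.43, 0.68, 0.47 and 0.22 TPM in M0, 1.19, 1.81, 1.2 and 1.65 TPM in IFN-γ non-phagocytic, 0.36, 0.0, 0.92 and 0.31 TPM in IFN-γ Tconv-phagocytic and 0.36, 0.0, 0.82 and 0.0 TPM in IFN-γ Treg-phagocytic libraries. Computed from the value of 1 read, these IFN-γ levels stand for 3 to 5 reads per non-phagocytic library, 0 to 3 per Tconv-phagocytic library and 0 to 2 per Treg-phagocytic library, against 117 to 526 reads with IL-10. Under IFN-γ the gene was called lower with Treg uptake (-1.03, SE 0.24, adjusted p = 0.042), and higher in IFN-γ non-phagocytic libraries than in M0 (0.89, SE 0.17, adjusted p = 0.0019). The first call was lost in 11 of 17 alternatives, among them the removal of any 1 library except Treg-phagocytic BV421-1 (adjusted p from 0.0674 to 0.103), and its size ran from -0.32 to -2.67 with the pseudocount. The second held in all 17, with sizes from 0.29 to 1.79. The difference with Tconv uptake under IFN-γ was -0.91 (adjusted p = 0.592).

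F13a1 (ENSMUSG00000039109, chr13:36867178-37050244) encodes the A subunit of coagulation factor XIII, a transglutaminase of platelets and of alternatively activated macrophages. It held 28.98, 32.39, 30.23 and 27.07 TPM in IL-10 non-phagocytic, 55.05, 50.48, 56.73 and 51.79 TPM in IL-10 Tconv-phagocytic and 45.35, 42.49, 46.35 and 47.79 TPM in IL-10 Treg-phagocytic libraries. The order was that of Ppbp, again with 3 groups apart. F13a1 rose by 0.91 with Tconv uptake (SE 0.06, adjusted p = 0.00016, limma), 1.80-fold by mean TPM, and by 0.68 with Treg uptake (SE 0.06, adjusted p = 0.00040), 1.53-fold, in all 17 alternatives of each. Treg- against Tconv-phagocytic libraries gave -0.23 (SE 0.05, adjusted p = 0.0792). M0 held 1.42, 1.4, 1.33 and 1.31 TPM. The IFN-γ libraries held 0.38, 1.23, 0.8 and 0.96 TPM (non-phagocytic), 0.47, 0.55, 0.29 and 0.61 TPM (Tconv) and 1.41, 2.57, 1.58 and 0.32 TPM (Treg), with no called difference among them. Treg against Tconv gave 0.71 there (adjusted p = 0.186), and 1.00 with an adjusted p of 0.0304 without Treg-phagocytic library BV421-2.

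Since Ppbp and F13a1 are platelet genes by name, platelet and megakaryocyte markers were read in the same libraries. Pf4 (platelet factor 4), which lies 2.4 kb from Ppbp, was high throughout, at 188 TPM in M0, 1030 TPM in IL-10 non-phagocytic, 1265 TPM in IL-10 Tconv-phagocytic and 1150 TPM in IL-10 Treg-phagocytic libraries. It rose with Tconv uptake (0.38, adjusted p = 0.00033) and with Treg uptake (0.24, adjusted p = 0.0070) under IL-10. The other 14 markers together summed to 16.5 to 24.4 TPM in IL-10 non-phagocytic, 17.9 to 22.7 TPM in IL-10 Tconv-phagocytic and 17.9 to 19.7 TPM in IL-10 Treg-phagocytic libraries, to 20.8 to 23.4 TPM in M0 and to 8.14 to 19.7 TPM in the IFN-γ groups. The part of platelet RNA in the Ppbp and F13a1 results was not tested. Of the 15 markers, 4 were at 0 in all libraries of M0, 4 in all IL-10 non-phagocytic, 4 in all IL-10 Treg-phagocytic and 0 in all IL-10 Tconv-phagocytic libraries. The platelet glycoprotein genes Gp1bb and Gp6 were among those at 0 in each of the first 3 groups. Markers above 0 in every library numbered 8 in M0, 5 in IL-10 non-phagocytic, 6 in IL-10 Treg-phagocytic and 11 in IL-10 Tconv-phagocytic libraries. Of 4 tested CXC chemokine and receptor genes listed beside Ppbp, Pf4 among them, 1 rose and 0 fell with Tconv uptake under IL-10 (all genes 4.31% and 1.78%) and 1 rose and 1 fell with Treg uptake (6.82% and 4.51%). Of 36 genes next to the 9 genes (2 on each side), 25 were tested, and 2 were at least doubled in IL-10 non-phagocytic libraries over M0 (all genes 1.31%): Pf4 (2.43), and Il21r (1.14), which encodes the IL-21 receptor, 23.8 kb from Il4ra.

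Other genes of coagulation and matrix cross-linking moved in both directions. With Tconv uptake under IL-10, 3 of 14 tested rose and 1 fell (all genes 4.31% and 1.78%), and with Treg uptake 3 rose and 5 fell (all genes 6.82% and 4.51%). Tgm2, which encodes tissue transglutaminase, rose with Tconv (0.31, adjusted p = 0.0015) and with Treg uptake (0.18, adjusted p = 0.027). Plau, which encodes urokinase, rose in both (0.51, adjusted p = 0.0011, and 0.75, adjusted p = 0.00012). Fn1, the gene of fibronectin, fell with Treg uptake (-1.13, adjusted p = 2.4e-05). Fn1 is also expressed by stromal cells, whose marker sum was 158 to 170 TPM in Tconv-phagocytic, 87.0 to 91.6 TPM in non-phagocytic and 29.6 to 33.7 TPM in Treg-phagocytic libraries. Their part in this result was not tested.

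Bcl3, Nfil3 and Sbno2 act in the nucleus. Bcl3 (ENSMUSG00000053175, chr7:19808462-19822824) encodes an IκB-family protein that holds NF-κB p50 dimers on promoters, and it held 82.3, 75.91, 85.73 and 80.94 TPM in IL-10 non-phagocytic, 66.54, 68.44, 56.33 and 65.22 TPM in IL-10 Tconv-phagocytic and 61.52, 56.95, 59.83 and 52.56 TPM in IL-10 Treg-phagocytic libraries. Both phagocytic groups lay below the non-phagocytic one and overlapped each other. Bcl3 fell by 0.41 with Treg uptake (SE 0.06, adjusted p = 0.0036, limma), a call lost only when all 28 libraries shared 1 spread (adjusted p = 0.0596). Its mean TPM fell by 28.9%. With Tconv uptake it differed by -0.26 (SE 0.07, adjusted p = 0.0611), and passed the test with a filter of 5 TPM, without scaling and with variance weights (adjusted p from 0.0182 to 0.0439). Means in the other 4 groups were 22.1 to 28.9 TPM with overlap between all neighbours. IFN-γ non-phagocytic libraries against M0 gave 0.44 (adjusted p = 0.0561), where replicate 2 with IFN-γ (41.57 TPM) stood above the other 3 (23.32 to 27.03 TPM). Without it the difference was 0.26 with an adjusted p of 0.0302, and without replicate 1 or 4 it was 0.52 in each case, with adjusted p of 0.0437 and 0.0431.

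Of 14 tested NF-κB subunits and inhibitors besides Bcl3, 1 rose and 3 fell with Treg uptake under IL-10 (all genes 6.82% and 4.51%). Tnfaip3, the gene of the deubiquitinase A20, rose (0.41, adjusted p = 0.011), and Nfkbiz, which encodes another nuclear IκB protein, fell (-0.31, adjusted p = 0.0070). With Tconv uptake 1 rose and 1 fell (all genes 4.31% and 1.78%): Nfkbia, which encodes IκBα, rose (0.28, adjusted p = 0.022) and Nfkbiz fell (-0.17, adjusted p = 0.045).

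Sbno2 (ENSMUSG00000035673, chr10:80056992-80106108) encodes a homologue of the Drosophila co-regulator strawberry notch, named as a co-repressor downstream of IL-10 and STAT3. It held 137.34, 136.32, 140.61 and 143.63 TPM in IL-10 non-phagocytic, 114.75, 121.32, 107.25 and 118.89 TPM in IL-10 Tconv-phagocytic and 106.61, 108.92, 106.26 and 98.99 TPM in IL-10 Treg-phagocytic libraries. All phagocytic libraries were below all non-phagocytic ones. Sbno2 fell by 0.32 with Treg uptake (SE 0.04, adjusted p = 0.0012, limma) in all 17 alternatives. With Tconv uptake it fell by 0.19 (SE 0.04, adjusted p = 0.034), a call lost in 9 of 17 alternatives, among them the removal of any IL-10 non-phagocytic library and of Tconv-phagocytic BV421-1 or Ax647-2 (adjusted p from 0.0601 to 0.0925).

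Under IFN-γ, Sbno2 was the gene of the 9 whose difference between the kinds of prey held in every alternative. It held 40.34, 41.08, 44.42 and 35.22 TPM in non-phagocytic, 45.74, 51.52, 52.49 and 43.85 TPM in Tconv-phagocytic and 29.57, 30.95, 32.16 and 30.17 TPM in Treg-phagocytic libraries. Every Treg-phagocytic library was below every other IFN-γ library, and M0, at 48.84, 53.26, 49.0 and 48.56 TPM, overlapped with the Tconv-phagocytic group. Sbno2 fell by 0.57 from Tconv- to Treg-phagocytic libraries (SE 0.08, adjusted p = 0.0038), with the same call in all 20 alternatives. Its mean TPM fell by 36.5%. From non-phagocytic to Treg-phagocytic libraries it fell by 0.36 (SE 0.08, adjusted p = 0.036), which was lost in 10 of 17 alternatives, among them the removal of any 1 library except non-phagocytic replicate 4 (adjusted p from 0.0666 to 0.0902). In the IFN-γ Treg-phagocytic libraries the summed IFN-γ response genes were also lower, at 499 to 581 TPM against 860 to 1157 TPM with Tconv, and relative depth was 11.3% to 19.7% against 20.2% to 23.7%. The T cell marker sums, at 523 to 822 TPM and 532 to 673 TPM, overlapped. The part of these in the result was not tested.

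Of 10 other strawberry notch, ETS repressor and co-repressor genes tested, 0 rose and 3 fell from IFN-γ Tconv- to Treg-phagocytic libraries: Sbno1, its paralogue, by 0.94 (adjusted p = 0.0050), Etv3, which encodes an ETS repressor also induced by IL-10, by 0.56 (adjusted p = 0.0025), and Ncor1, a nuclear co-repressor, by 0.52 (adjusted p = 0.019). The median of the 10 genes was 0.01 and that of all genes 0.00, and 8.3% of all genes fell in this comparison.

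Nfil3 (ENSMUSG00000056749, chr13:52967209-52982878) encodes a basic leucine zipper repressor of transcription. It held 72.64 to 81.44 TPM in IL-10 non-phagocytic, 71.36 to 73.77 TPM in IL-10 Tconv-phagocytic and 68.2 to 76.48 TPM in IL-10 Treg-phagocytic libraries. These groups overlapped, and no uptake comparison of Nfil3 passed the test with either cytokine. The largest of the 6 differences was -0.12 (SE 0.09), for Treg uptake under IFN-γ. Of 12 other bZIP factor genes tested, 2 rose and 0 fell with Tconv uptake under IL-10 (all genes 4.31% and 1.78%), and 1 rose and 2 fell with Treg uptake (6.82% and 4.51%).

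Zfp36 (ENSMUSG00000044786, chr7:28376784-28379228) encodes tristetraprolin, which binds AU-rich elements of cytokine mRNAs and hastens their decay. It held 193.41, 194.19, 197.02 and 195.23 TPM in IL-10 non-phagocytic, 145.09, 144.76, 147.94 and 146.74 TPM in IFN-γ non-phagocytic and 107.73, 100.91, 105.37 and 98.33 TPM in M0 libraries. After scaling, the IFN-γ and IL-10 levels differed by 0.13. Zfp36 was higher with IFN-γ than in M0 (0.77, SE 0.04, adjusted p = 6.6e-07, limma). It passed no uptake test. The nearest was Treg uptake under IFN-γ (0.17, adjusted p = 0.102), which passed with median-of-ratios scaling (0.23, adjusted p = 0.0428), with all 28 libraries in 1 model (adjusted p = 0.0128) and without Treg-phagocytic library BV421-2 (0.21, adjusted p = 0.0402). Of 14 tested paralogues and RNA-decay partners, 0 rose and 1 fell with Treg uptake under IL-10 (all genes 6.82% and 4.51%), and 0 passed the test with Tconv uptake (6.08%). Its IL-10 phagocytic libraries held 180.87 to 199.03 TPM. Of 17 tested transcripts known to be bound by the protein, 4 rose and 4 fell with Treg uptake under IL-10, and 2 rose and 2 fell with Tconv uptake (all genes 4.31% and 1.78%). Tnf, the gene of tumour necrosis factor, rose with Treg uptake from 2.17, 3.46, 3.25 and 3.17 TPM to 5.49, 7.14, 4.81 and 6.53 TPM (0.85, adjusted p = 0.0075). Ccl3, a chemokine gene, rose by 0.61 (adjusted p = 0.00023) in the same contrast. In M0 Tnf had a mean of 7.44 TPM, above the mean of every IL-10 group. The M0 libraries (6.62 to 8.51 TPM) overlapped with the IL-10 Treg-phagocytic ones (4.81 to 7.14 TPM).

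In IFN-γ non-phagocytic libraries 5 of the 9 genes were called higher than in M0 and 0 lower, where 53.1% of all tested genes were called in either direction, 26.4% upward and 26.7% downward. The same M0 libraries stand in the IL-10 comparison by which the genes may have been chosen, which can favour genes low in M0. Nothing is therefore read from that count. The IFN-γ libraries lay wholly above M0 in 6 of 9 after scaling (24.8%). Saa3 rose by 3.28 (SE 0.16, adjusted p = 6.7e-07), 8.56-fold by mean TPM. Ppbp, Zfp36, Il1rn and Nfil3 rose by 0.89, 0.77, 0.62 and 0.30. The Ppbp value rests on 3 to 5 reads per IFN-γ library and 3 to 9 reads per M0 library. The sample labels of M0 name no T cells, so the cytokine and exposure to T cells cannot be told apart in this comparison. The T cell marker sum was 441 to 769 TPM in these IFN-γ libraries and 52.9 to 139 TPM in M0, and depth was 18.3% to 22.0% against at least 67.8%. Their part in the result was not tested. Scaling matters here: without it the median of all genes was -0.24 and 2560 of 8132 calls were upward (3592 of 7233 with scaling), the Nfil3 call was lost (0.04, adjusted p = 0.616), and Il4ra (0.09, adjusted p = 0.206 with scaling) and Sbno2 (-0.04, adjusted p = 0.661) were called lower, by -0.18 (adjusted p = 0.016) and -0.31 (adjusted p = 0.0071). F13a1 differed by -0.24 (adjusted p = 0.284). Socs3 rose from 3.79 to 14.9 TPM (1.99, adjusted p = 4.2e-05).

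**Figure D2:**
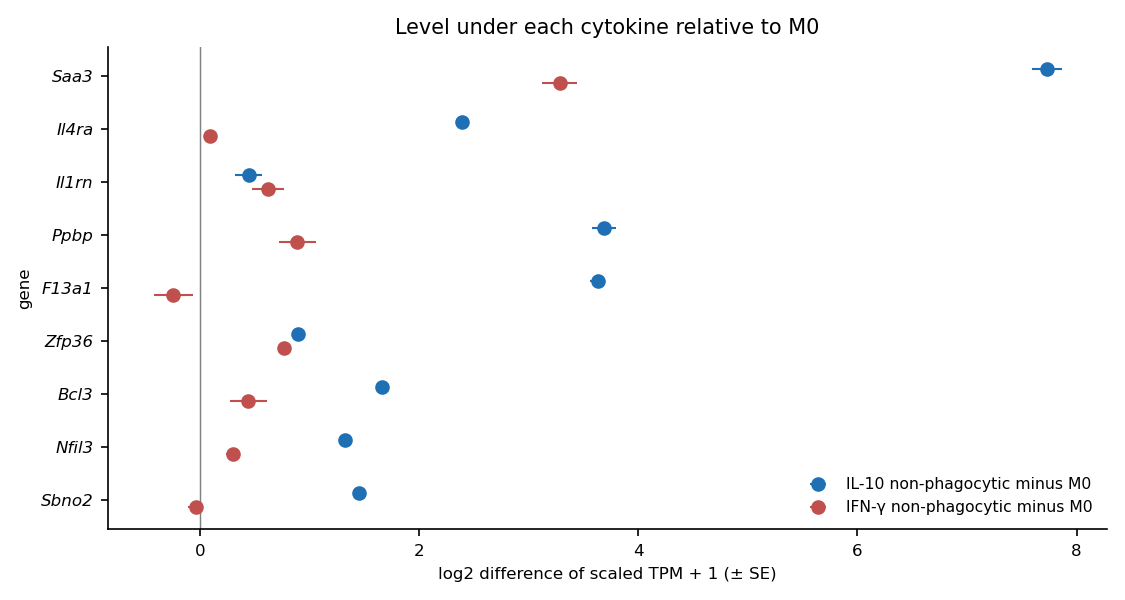
Log2 difference of scaled TPM + 1 (horizontal axis, points with SE bars) between non-phagocytic libraries of each cytokine and the same 4 M0 libraries, for the 9 genes (vertical axis). Saa3 stands at 7.73 with IL-10 and 3.28 with IFN-γ, while Zfp36 (0.90 and 0.77) and Il1rn (0.44 and 0.62) lie close together for both cytokines. The genes may have been chosen by the IL-10 values, which carry no test.

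Counted together, the genes differed in both directions between phagocytic and non-phagocytic libraries under IL-10. With Treg uptake 2 of 9 rose (Ppbp, F13a1) and 3 fell (Il4ra, Bcl3, Sbno2), where 11.3% of all genes were called, 6.82% upward and 4.51% downward. With Tconv uptake 3 rose (Ppbp, F13a1, Saa3) and 1 fell (Sbno2), where 6.08% were called, 4.31% upward and 1.78% downward. The IL-10 libraries also stand in the comparisons by which the genes may have been chosen, which can favour genes high in some of them. Nothing is therefore read from these counts. After scaling, libraries of the groups did not overlap in 2 genes upward (1363 of 13631 genes) and 3 downward (7.99%) with Treg uptake, and in 3 upward (8.61%) and 2 downward (5.01%) with Tconv uptake. The median over the 9 genes was -0.06 and -0.02, close to the median of all genes (0.00 and 0.01). Between Treg- and Tconv-phagocytic libraries 2 were lower with Treg (Saa3, Il4ra) and 0 higher. The share over all genes was 1.38% (0.924% lower, 0.455% higher), and since the Il4ra call was known when the list was drawn up, nothing is read from that count. In that contrast 4 genes, these 2 with Ppbp and F13a1, lay wholly lower (4.92%) and 0 wholly higher (3.97%). Without scaling the calls of all genes turned to mostly lower (565 of 2097 upward with Treg uptake and 288 of 1135 with Tconv uptake, against 929 of 1544 and 587 of 829 with scaling), and the 9 genes kept their calls, to which Il4ra (-0.16) and Bcl3 (-0.34) were added as lower with Tconv uptake.

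**Figure D3:**
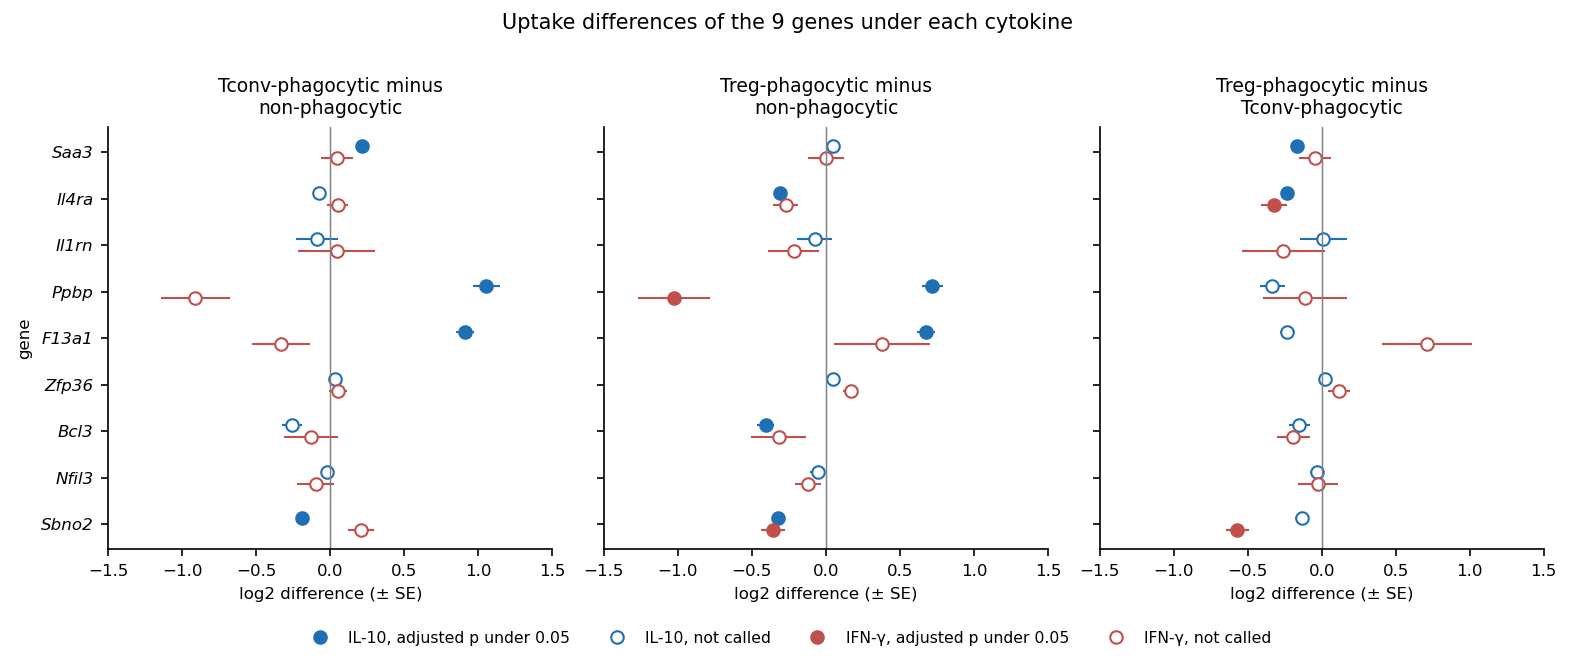
Log2 differences (horizontal axis, points with SE bars) of the 9 genes for Tconv uptake, Treg uptake and Treg against Tconv, under IL-10 (blue) and IFN-γ (red); filled points passed an adjusted p of 0.05. Ppbp (1.05 and 0.72) and F13a1 (0.91 and 0.68) rise with uptake under IL-10, Il4ra, Bcl3 and Sbno2 lie below 0 in the Treg panels, and the error bars are wider under IFN-γ.

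Under IFN-γ the number of the 9 genes called was 0 with Tconv uptake, 2 with Treg uptake and 2 for Treg against Tconv. With Tconv uptake 0 of 9 were called by limma, where 1 of 13631 genes was called (0.00734%). At an unadjusted p under 0.05 there were 2 of the 9 and 875 of all genes, and in 1 model of all 28 libraries 1 of the 9 was called (Ppbp, adjusted p = 0.018). Libraries lay wholly apart in 0 genes upward (1.47%) and 1 downward (2.06%). With Treg uptake 2 fell (Ppbp, Sbno2) and 0 rose, against 7.73% of all genes, 6.17% downward and 1.56% upward, and 3 lay wholly lower (9.93%) and 1 wholly higher (4.48%). From Tconv- to Treg-phagocytic libraries 2 fell (Sbno2, Il4ra) and 0 rose, against 11.5% of all genes, 8.3% downward and 3.25% upward, and 2 lay wholly lower (11.6%) and 0 wholly higher (6.42%). Of these calls 1, the Sbno2 fall from Tconv to Treg, held with each library left out in turn. In the last contrast 443 of 1574 calls of all genes were upward, 244 of 1611 without scaling and 745 of 1739 with median-of-ratios scaling, and for Treg uptake 212 of 1053 were upward and 420 of 1144 with median-of-ratios scaling. The relative depth of these libraries was 11.3% to 23.7%.

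Whether the uptake differences themselves differed between the 2 cytokines was tested as a difference of differences (IFN-γ minus IL-10). Ppbp differed for Tconv uptake (-1.96, SE 0.24, adjusted p = 0.00065, limma) and for Treg uptake (-1.75, SE 0.26, adjusted p = 0.00037), F13a1 for Tconv uptake (-1.24, SE 0.19, adjusted p = 0.0034) and Sbno2 for Treg against Tconv (-0.43, SE 0.09, adjusted p = 0.0042), each in every alternative. These were 3 of 9 genes for Tconv uptake with Sbno2 (0.40, adjusted p = 0.047, lost in 14 of 25 alternatives), 1 for Treg uptake and 1 for Treg against Tconv, where 1.71% (0.205% upward, 1.5% downward), 9.53% (1.89% and 7.64%) and 13.1% (4.14% and 8.93%) of all genes were called. Of all calls 28 of 233, 257 of 1299 and 565 of 1782 were upward, and without scaling 78 of 121, 449 of 1286 and 343 of 1787. The Ppbp values rest on at most 5 reads per IFN-γ library, and with the pseudocount they ran from -1.20 to -3.22 and from -0.93 to -3.42. F13a1 was low under IFN-γ too, with means of 0.84 TPM in non-phagocytic and 0.48 TPM in Tconv-phagocytic libraries. At such levels the log2 scale understates any change under IFN-γ, so its value mostly reflects the rise under IL-10. Over the alternatives that value ran from -0.93 to -1.63. F13a1 for Treg against Tconv gave 0.94 (adjusted p = 0.0543), and 1.23 with an adjusted p of 0.00052 without IFN-γ Treg-phagocytic library BV421-2.

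The signalling genes upstream were read beside the 9. Socs3 held 169.63, 161.59, 169.37 and 172.19 TPM in IL-10 non-phagocytic, 163.75, 164.56, 162.3 and 171.26 TPM in IL-10 Tconv-phagocytic and 134.29, 144.43, 141.75 and 136.33 TPM in IL-10 Treg-phagocytic libraries, so the Treg group stood apart below the others. It fell with Treg uptake by 0.19 (adjusted p = 0.0067) and was lower in Treg- than in Tconv-phagocytic libraries (-0.25, adjusted p = 0.0054). Stat3 was 112 TPM in IL-10 non-phagocytic, 94.7 TPM in Tconv-phagocytic and 87.8 TPM in Treg-phagocytic libraries, and fell with Treg uptake by 0.27 (adjusted p = 0.011). Il10ra, the ligand-binding chain, passed no uptake test, with means of 89.7 to 93.2 TPM. Il10rb rose slightly with Tconv uptake (0.15, adjusted p = 0.012) and with Treg uptake (0.15, adjusted p = 0.014).

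Under IFN-γ Stat3 and the kinase gene Tyk2 were lower with Treg than with Tconv prey. From Tconv- to Treg-phagocytic libraries Stat3 fell from 67.68, 80.19, 80.2 and 88.56 TPM to 36.07, 36.92, 41.26 and 42.7 TPM (by 0.92, adjusted p = 0.0016) and Tyk2 fell by 1.18 (adjusted p = 0.00067). Il10rb rose by 0.39 (adjusted p = 0.021). Of 15 genes of the receptor, its kinases, STATs and inhibitors, 1 rose and 4 fell in this contrast (all genes 3.25% and 8.3%), with a median of -0.02 beside 0.00 for all genes. Summed IFN-γ response genes (499 to 581 against 860 to 1157 TPM) and relative depth (11.3% to 19.7% against 20.2% to 23.7%) were also lower with Treg. Their part in the result was not tested. The Stat3 difference between Treg- and Tconv-phagocytic libraries was larger with IFN-γ than with IL-10 (difference -0.81, adjusted p = 0.00018).

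Among 23 tested other genes described as IL-10 or STAT3 responsive, 5 rose and 7 fell with Treg uptake under IL-10 (all genes 6.82% and 4.51%). With Tconv uptake 4 rose and 2 fell (4.31% and 1.78%), and between Treg- and Tconv-phagocytic libraries 0 rose and 2 fell (0.455% and 0.924%). Selenop, the gene of a selenium transport protein, rose with both (0.32, adjusted p = 0.00052, and 0.38, adjusted p = 0.0013), as did Hmox1, the gene of heme oxygenase 1 (0.28, adjusted p = 0.00043, and 0.22, adjusted p = 0.0022). Bcl6, which encodes a transcriptional repressor, fell with both (-0.31, adjusted p = 0.00083, and -0.22, adjusted p = 0.026). Cebpb, the gene of a bZIP activator, fell with Treg uptake (-0.26, adjusted p = 0.0057). From M0 to IL-10 non-phagocytic libraries 5 of the 23 were at least doubled (all genes 1.31%), with Socs3 (5.13) far above the next, Ddit4 (1.30).

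**Figure D4:**
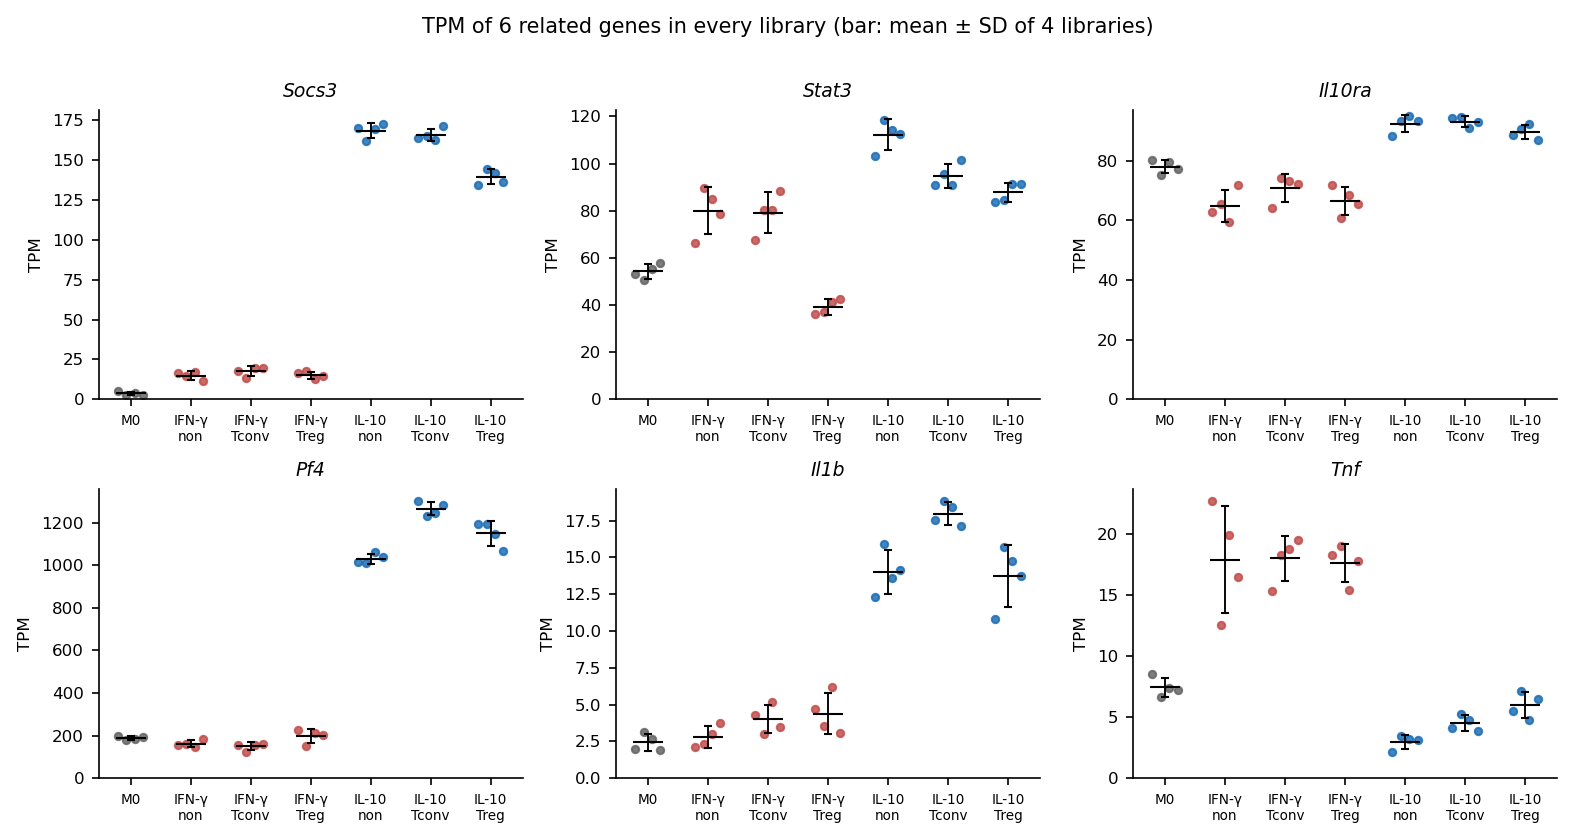
TPM (vertical axis, from 0) of Socs3, Stat3, Il10ra, Pf4, Il1b and Tnf in each library by group, drawn as for the 9 genes (bars: mean ± SD of 4). Socs3 stands at 134.29 to 172.19 TPM in the IL-10 groups and at no more than 19.92 TPM elsewhere, Stat3 is lowest in IFN-γ Treg-phagocytic libraries (36.07 to 42.7 TPM), and Pf4 follows the order of Ppbp under IL-10.

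The genes most like each of the 9 across the 28 libraries were found by Pearson's correlation of log2 scaled TPM over 8685 genes with a mean of at least 5 TPM. The libraries share their groups, so these values are a description. Saa3 was most like Socs3 (r = 0.993) and the complement gene C1qa (0.985). Il4ra and Sbno2 were both most like Pirb, which encodes an inhibitory receptor (0.991 and 0.982), and for Bcl3 Pirb came second (0.954) after Pgs1 (0.955). Ppbp was most like Ctsc, the gene of cathepsin C (0.979), F13a1 like Ednrb, an endothelin receptor gene (0.986), Nfil3 like Rab3il1 (0.980) and, next, Zfp36l1, a paralogue of Zfp36 (0.978), and Zfp36 like Junb (0.937). For Il1rn the highest value was 0.696 (Ubald2).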

How the data were processed

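Poly(A) RNA was sequenced with strand-specific libraries, per the labels' protocols. The deposited values are TPM per Ensembl gene ID, with 2 decimals, and STAR, RSEM and the build mm10 are named in the submitters' processing notes, without versions. Of 55487 gene IDs, 55141 matched a symbol. Of 378 library pairs, 0 were identical. The authors gave no read counts, so relative depth was read from 14527 genes with 1 transcript of 500 to 2000 nt (GENCODE vM21): TPM multiplied by the length less a fitted 200 to 230 bases fell within 0.15 of whole reads for 89.6% to 93.1% of values up to about 4 reads, against 30.0% of evenly spread values. The value of 1 read and the bases taken off were chosen per library to make this share largest. The 30.0% has no such fit, so these shares are not like for like.

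TPM were divided by a trimmed mean of log2 ratios (30% of ratios and 5% of levels trimmed), and log2(value + 1) was fitted with limma 3.58.1 (R 4.3.3, trended eBayes), each comparison on its own groups, since IFN-γ libraries varied more. Genes had to reach 1 TPM in 4 or more of the 28 libraries, which left 13631. A call is an adjusted p under 0.05 (Benjamini-Hochberg over all 13631 genes). The fit was tested on simulated data. Alternatives changed the pseudocount, filter, scaling, model, dye, replicate block and each library in turn.

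Named genes are the 9 in every comparison, genes listed by name, and up to 4 called genes per list with the largest changes and at least 5 TPM. The members and lists were chosen with earlier results of these data known. No library was left out. Group overlap is by TPM in the text and by scaled values in counts over all genes. Some genes that the naming rule picks are not reported here.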

Additional observations from a re-analysis of the deposited data

Results flagged for a closer look

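One of 63 sets of 4 libraries (9 genes in 7 groups) held a library that stood apart from the other 3 by a gap test: Sbno2 in M0 replicate 2, at 53.26 TPM, where the others lay between 48.56 and 49.0 TPM. Chance alone gives about 1 in 20 such sets.

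Of 27 tests of whether an uptake difference itself differed between IFN-γ and IL-10, 5 passed an adjusted p of 0.05 (limma over all genes). These were 3 of 9 for Tconv uptake, 1 of 9 for Treg uptake and 1 of 9 for Treg against Tconv, where 1.71%, 9.53% and 13.1% of all genes passed. For Ppbp the value (IFN-γ minus IL-10) was -1.75 for Treg uptake and -1.96 for Tconv uptake. For F13a1 it was -1.24 for Tconv uptake, and for Sbno2 it was -0.43 for Treg against Tconv and 0.40 for Tconv uptake.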

How the results depend on the processing

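Of 1827 tests of the 9 genes under alternatives, 1729 kept direction and call, 70 lost a call, 27 gained one and 1 reversed: Il4ra in IFN-γ non-phagocytic libraries against M0 gave -0.178 without scaling. In 54 more, values called in neither fit changed sign, none above 0.26 in size. Of 594 described values with IL-10, 47 moved by more than the spread between libraries. Leaving out 1 library at a time, the number of the 9 genes called ran from 1 to 2 for IFN-γ Treg against Tconv (2 with all libraries), 0 to 1 for IFN-γ Treg uptake (2), 1 to 2 for IL-10 Treg against Tconv (2), and 1 to 2 for the difference between cytokines in Treg against Tconv (1). Shares in brackets from here on are those of all genes called. For IFN-γ Treg against Tconv (11.5%), 1 was called with a pseudocount of 5 (11.4%), without the filter (3.58%), with median-of-ratios scaling (12.8%) or with either dye as covariate (9.66% and 9.93%). For IFN-γ Treg uptake (7.73%), 1 was called with a pseudocount of 0.1 (7.6%) or a filter of 5 TPM (9.92%), 0 without the filter (2.52%) and 4 with all 28 libraries in 1 model (25.8%). That model gave 1 for IFN-γ Tconv uptake (0.895%, from 0 and 0.00734%), 1 for IL-10 Treg against Tconv (0.785%, from 2 and 1.38%) and 2 for IL-10 Tconv uptake (1.77%, from 4 and 6.08%), and variance weights gave 1 for IL-10 Treg against Tconv (2.64%). For the difference between cytokines in Treg against Tconv (13.1%), 2 were called with a pseudocount of 5 (13.4%), a filter of 5 TPM (16.4%), median-of-ratios scaling (13.6%), all libraries in 1 model (16.2%) or variance weights (13.2%). The cause of these moves was not tested.

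Replicate numbers showed no clear pairing of the libraries: deviations of same-numbered libraries correlated from -0.132 to 0.168, and in no pair of groups were all correlations above 0.1. Libraries of different numbers were not compared in this way, so a weak pairing cannot be told from none. With a replicate block by file number or by title, 1 of the 9 genes was called for IFN-γ Treg against Tconv (6.49% and 6.12% of all genes) and 1 for IL-10 Treg against Tconv (0.462% and 0.602%), and by file number 0 for IFN-γ Treg uptake (2.96%). In IL-10 Treg against Tconv the call lost was that of Il4ra by file number (adjusted p = 0.102, limma) and that of Saa3 by title (0.072). Ppbp rested on at most 5 reads per IFN-γ library, and reads were not computed for the other genes.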
